A study of Mus musculus with 32 samples.

Results

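Cytochrome P450 enzymes are heme proteins of the endoplasmic reticulum and mitochondria that use molecular oxygen and electrons from NADPH to oxidise drugs, inhaled chemicals, fatty acids, steroids and bile acid precursors. In the mouse lung, club cells of the airways and type 2 cells of the alveoli carry forms of their own, Cyp2f2, Cyp4b1 and Cyp2b10 among them, whereas most Cyp2c, Cyp2d and Cyp3a enzymes belong to the liver. Cyp1a1 is the textbook target of the aryl hydrocarbon receptor (AhR), a transcription factor that binds aromatic pollutants and endogenous ligands. The family was taken as every gene on the array whose annotated symbol reads Cyp, number, letter, number, without the retinoic acid hydroxylases Cyp26a1, Cyp26b1 and Cyp26c1. That rule found 68 of the 18193 genes with a probe set of a single symbol. The 68 genes had 91 probe sets, and each gene was read by the probe set with the highest mean.

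RNA came from a portion of the lung of C3H/HeN mice with glutathione reductase (Gsr-WT, here WT) or without it (Gsr-KO, here KO). This enzyme spends NADPH to return oxidised glutathione to its reduced form. Unexposed embryos of both genotypes were taken at embryonic day 19 (E19), with 4 arrays each. Pups were kept with their dams in room air or in continuous 100% oxygen (hyperoxia) from day 0 to day 5, and were taken at postnatal day 5 (P5) or at day 56 (P56), with 3 arrays in each of these 8 groups. All 32 arrays carry the same strain, and each array holds 1 mouse. The spread between arrays thus holds that between animals together with any from the handling of tissue, RNA and array. How the Gsr-KO allele was made, and the sex of the mice, are not given in the sources used here. RNA of a whole piece of lung is a mixture, so fewer cells of a type and less RNA per cell cannot be told apart in any value below.

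Signals are the deposited units, scaled so that the trimmed mean was 500 on every array. Array totals ran from 31172678 to 35272173 units and array medians from 68.4 to 124.6, and precision is limited by how many arrays there are. A change is a difference of log2(signal + 26.3), with its standard error (SE) or 95% interval from the limma fit of all arrays. "Called" means an adjusted p under 0.05 over the 13345 genes tested, those that exceeded 100.4, the median of all values, on 3 or more arrays. Percentages of all genes below are shares called. Member counts at an unadjusted p under 0.05 have no share of all genes beside them. They cannot be read as an excess in the family. Gsr itself ran from 498 to 1541 on the WT arrays and from 138 to 257 on the KO arrays. Some arrays stood apart. KO E19 replicate 1 had a log2 ratio of 3' to 5' control probes of 4.37 and WT P56 hyperoxia replicate 2 one of 2.84, against -0.06 to 1.55 on the others. WT E19 replicate 1 lacked the liver transcripts seen in replicates 2 to 4 of its group. Over the genes tested KO P5 air replicate 1 correlated best with an E19 array, WT P5 air replicate 3 with a hyperoxia array and KO P5 hyperoxia replicate 1 with an air array. WT E19 replicate 1 and KO E19 replicates 2 and 4 correlated best with KO P5 air replicate 1. KO E19 replicate 1 was closest to WT P56 hyperoxia replicate 2, itself closest to a KO P56 hyperoxia array. WT P56 air replicate 3 and KO P56 hyperoxia replicate 1 were closest to an array of the other exposure.

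Of the 68 genes 34 passed the filter and were tested. The pass says nothing of the direction of a gene that is high in several groups, but a gene that passed through a single group had to differ there. The members fell into 3 classes, set from their levels. A member was said to follow liver when its log2 signal correlated with the mean of Ahsg and Apoa1, transcripts of plasma proteins made by hepatocytes, at r of at least 0.7 over both the 8 E19 arrays and the 12 P5 arrays. There were 12 such genes, 11 of them tested. A lung form exceeded that median on 16 or more of the 32 arrays and did not meet that rule, which held for 19 genes, all tested. The other 37 were low or unclassed, and 4 of them were tested.

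The promoters below give the sequence just before the gene for some liver followers and lung forms. RefSeq (GRCm38.p6) gave a promoter for 49 of the 68 members, 16 of the lung forms and 10 of the liver followers. Each line holds the 250 bases before the annotated start, read along the gene, with motif matches in capitals. The motifs searched were TATAA on the gene's strand, and on both strands CAAAGTCC (the core bound by HNF4A), TGTTTAC (forkhead factors), GTTAAT (HNF1) and GCGTG (core of the AhR element). None of these motifs overlapped in the promoters shown. Cyp3a11, Cyp8b1 and Cyp2c70 are liver followers that all carry CAAAGTCC, which 5 of the 10 with a promoter did, so they do not stand for the class. Cyp1a1, Cyp2b10 and Cyp4b1 are the lung forms with the steepest changes with age.
Cyp3a11 (chr5:145879855-145880104, minus strand): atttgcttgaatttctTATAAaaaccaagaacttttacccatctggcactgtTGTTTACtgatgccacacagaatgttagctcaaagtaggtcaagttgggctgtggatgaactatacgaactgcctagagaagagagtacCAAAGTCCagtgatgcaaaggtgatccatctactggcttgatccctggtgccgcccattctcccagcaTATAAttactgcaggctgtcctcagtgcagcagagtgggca
Cyp8b1 (chr9:121916306-121916555, minus strand): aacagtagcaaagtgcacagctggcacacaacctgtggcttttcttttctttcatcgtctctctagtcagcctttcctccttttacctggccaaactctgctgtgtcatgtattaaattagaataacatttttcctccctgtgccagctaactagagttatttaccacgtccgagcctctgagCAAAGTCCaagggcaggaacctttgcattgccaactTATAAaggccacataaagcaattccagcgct
Cyp2c70 (chr19:40187287-40187536, minus strand): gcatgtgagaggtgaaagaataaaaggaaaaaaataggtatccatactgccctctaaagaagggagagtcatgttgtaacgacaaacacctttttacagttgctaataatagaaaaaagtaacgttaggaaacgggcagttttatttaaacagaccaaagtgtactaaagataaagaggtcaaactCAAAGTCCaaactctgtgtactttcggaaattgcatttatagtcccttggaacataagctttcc
Cyp1a1 (chr9:57697363-57697612, plus strand): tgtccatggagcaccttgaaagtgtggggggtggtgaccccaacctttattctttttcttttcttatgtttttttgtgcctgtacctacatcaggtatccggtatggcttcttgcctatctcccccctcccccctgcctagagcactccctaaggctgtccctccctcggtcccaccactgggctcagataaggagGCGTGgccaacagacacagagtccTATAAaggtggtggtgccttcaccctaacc
Cyp2b10 (chr7:25897408-25897657, plus strand): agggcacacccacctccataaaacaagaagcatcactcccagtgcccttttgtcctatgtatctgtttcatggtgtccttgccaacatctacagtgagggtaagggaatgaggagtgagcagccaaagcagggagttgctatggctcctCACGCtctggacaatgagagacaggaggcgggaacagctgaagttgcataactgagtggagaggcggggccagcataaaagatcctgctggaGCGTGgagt
Cyp4b1 (chr4:115647722-115647971, minus strand): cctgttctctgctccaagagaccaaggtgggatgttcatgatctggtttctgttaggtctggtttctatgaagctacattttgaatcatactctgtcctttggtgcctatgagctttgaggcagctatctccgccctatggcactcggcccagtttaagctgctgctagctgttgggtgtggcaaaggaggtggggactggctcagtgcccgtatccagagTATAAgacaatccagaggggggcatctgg

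Counting back from the start, CAAAGTCC began at -109 in Cyp3a11, -67 in Cyp8b1 and -64 in Cyp2c70. It was present in 5 of the 10 liver followers with a promoter (Cyp2c68, Cyp2c70, Cyp3a11, Cyp3a16, Cyp8b1) and in 1 of the 16 lung forms (Cyp4f18), against 1.22% of all 27025 promoters. The forkhead word TGTTTAC was found in Cyp3a11, Cyp3a16 and Cyp3a44, close paralogs that count as 1 sequence rather than as 3, and in 0 of the 16 lung forms, against 3.09% of all promoters. The HNF1 word GTTAAT was in 2 liver followers and 0 lung forms, against 6.52%. A TATAA box stood in 7 of 10 liver followers and in 3 of 16 lung forms (Cyp1a1, Cyp2e1, Cyp4b1), against 16.7% of all promoters. The AhR core GCGTG was in 8 of 16 lung forms and in 1 of 10 liver followers, against 28.2% of all, and lay at -54 in Cyp1a1 and at -101 and -9 in Cyp2b10. Cyp2c68 and Cyp2c70, the 3 Cyp3a genes, and Cyp2d10 and Cyp2d26 are members of shared subfamilies. The liver counts for CAAAGTCC and TATAA thus hold fewer independent sequences than members. These matches describe letters in a short window, and no binding was measured. Members of a class also lay together in the genome: Cyp2c37, Cyp2c68 and Cyp2c70 on chromosome 19, Cyp3a11, Cyp3a16 and Cyp3a44 on chromosome 5, and Cyp2d10 and Cyp2d26 on chromosome 15. Neighbours did not always share a class, since the liver follower Cyp2a12 is on chromosome 7 with the lung forms Cyp2b10, Cyp2f2 and Cyp2s1.

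Lung forms were read at all ages, and most rose after birth. Cyp2f2, the club cell enzyme that activates naphthalene, averaged 15001 over all arrays and was at least 4361 on each. In WT it stood at 7966, 7600.1, 5833 and 4361 at E19, at 12798, 10749.6 and 13133 in P5 air, and at 18426, 16384 and 20331 in P56 air. In KO it stood at 19279, 9809, 7426 and 10446 at E19, at 9541, 11046 and 11901 in P5 air, and at 24315, 27478 and 26317 in P56 air. The WT groups thus stepped up at each age with no overlap, while the KO groups overlapped between E19 and P5. Signals of different probe sets are not comparable, so every comparison below is of a gene with itself.

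**Figure D1:**
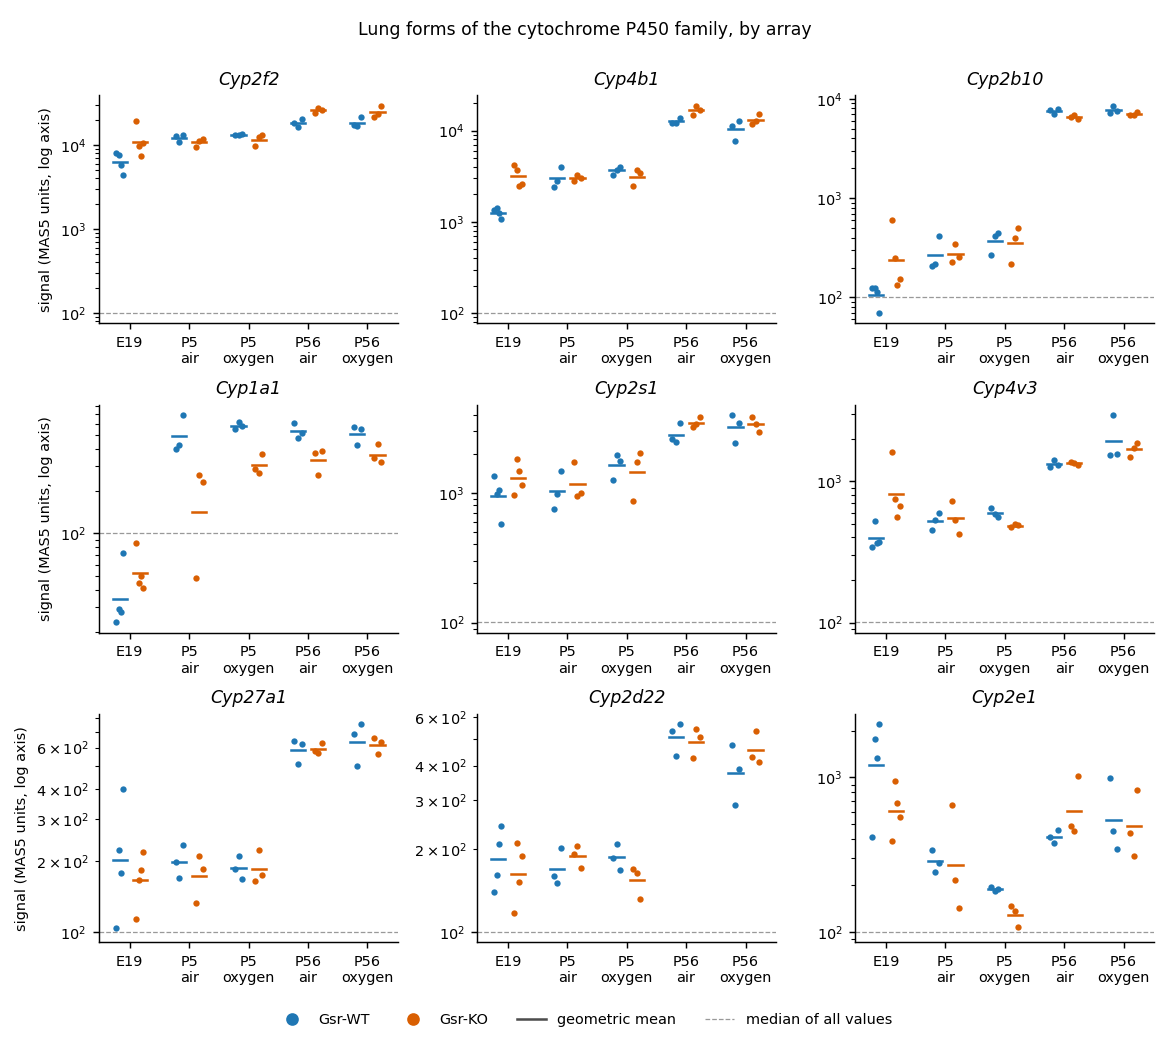
Signal of 9 lung forms on each array (points, log axis, deposited units) with the geometric mean of each group (bars), WT in blue and KO in orange, by age and oxygen; the dashed line is the median of all values, 100.4. Cyp2b10 goes from at most 603 at E19 to at least 6269.8 on the P56 arrays, and Cyp1a1 lies under the line on all E19 arrays.

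Between P5 and P56 in air 12 members rose and 2 fell in WT (12.1% and 10.8% of all genes tested), and 14 rose and 0 fell in KO (15.2% and 14.3%). The members that fell were the liver followers Cyp2c68 and Cyp2d26. Cyp2b10, a broad drug-metabolising form and the textbook target of the nuclear receptor CAR, changed most. In WT it read 209.5, 219 and 419 at P5 and 7701, 7112 and 7967 at P56, a log2 difference of 4.69 (SE 0.34, limma adjusted p = 2.68e-10). In KO it read 229, 345 and 256 at P5 and 6547, 6839 and 6269.8 at P56, a difference of 4.46 (SE 0.34, limma adjusted p = 5.46e-10). The other probe sets of Cyp2b10 gave 4.42 and 4.40 in WT, and no P56 array of either genotype came near any P5 array.

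Fatty acid and eicosanoid enzymes made up the largest rising group, with 5 of 9 tested members higher at P56 in WT and 6 of 9 in KO. Cyp4b1, which hydroxylates fatty acids and activates lung toxins such as 4-ipomeanol, read 2437, 2782 and 4042 in WT at P5 and 12222, 12100.1 and 13743 at P56 (log2 2.06, limma adjusted p = 3.61e-08). Its KO values went from 2826, 3246 and 3018 to 14784, 18754 and 16683 (log2 2.45, limma adjusted p = 2.04e-09). Both genotypes showed the step without overlap. Cyp4v3, an omega-hydroxylase of medium-chain fatty acids, rose by 1.31 in WT and 1.25 in KO. Cyp4f39, a hydroxylase of very long-chain fatty acids for skin ceramides, rose by 0.99 and 1.01, calls that were lost without WT P5 air replicate 2 (0.86) and without KO P5 air replicate 1 (0.74) or KO P56 air replicate 2 (0.77). Cyp4f15, of the Cyp4f group that hydroxylates leukotrienes and other eicosanoids, lay under the median of all values on every P5 array (28.1 to 76.3) and at 217 to 350 at P56, so its rise was at least 2.02-fold in WT and 2.81-fold in KO. Cyp4f13 was called in WT alone (0.60, limma adjusted p = 0.0497; lost without any 1 of the 6 arrays), and Cyp4f18 (1.57) and the epoxygenase Cyp2j9 (0.87) in KO alone. The call of Cyp4f18 was lost without KO P5 air replicate 3 or KO P56 air replicate 1 (1.48 each). However, 0 of the 34 members were called for a difference between the genotypes in this step (0% of all genes). At an unadjusted p under 0.05 in limma there were 4 of 34 members, with no share of all genes to set beside them.

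Among drug-metabolising forms Cyp2d22 and Cyp2s1 rose along with Cyp2b10. Cyp2d22, the mouse relative of human CYP2D6, went from 159, 150.1 and 202 to 535, 433 and 563 in WT and from 191, 204 and 171 to 425, 544 and 506 in KO, log2 differences of 1.45 and 1.26 (0.87 and 0.54 by its second probe set, the latter not called). Cyp2s1, an airway epithelial form, rose by 1.43 in WT and 1.54 in KO, and the WT call was lost with the mean level of Ahsg and Apoa1 on each array as a covariate of the fit, the liver covariate (0.88, limma adjusted p = 0.127). For Cyp2f2 the step was 0.59 (95% interval 0.11 to 1.06, limma adjusted p = 0.0661) in WT, where it was not called, and 1.27 (limma adjusted p = 0.000139) in KO. Cyp2e1, the ethanol-inducible form, was not called in either genotype.

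Of the sterol enzymes, Cyp27a1, the mitochondrial sterol 27-hydroxylase, rose from 198, 169.6 and 232 to 641, 511 and 622 in WT (log2 1.45) and from 133, 209.95 and 185 to 582, 569 and 625 in KO (1.63). Cyp39a1, a 24-hydroxycholesterol hydroxylase, rose by 1.01 and 0.76, and Cyp7b1, an oxysterol hydroxylase, by 0.68 in WT (KO 0.61, limma adjusted p = 0.054). Without WT P5 air replicate 1 the calls of Cyp39a1 (0.90) and Cyp7b1 (0.58) in WT were lost, and the WT count over all members was then 9 in place of 14. In KO the call of Cyp39a1 was lost without KO P5 air replicate 2 or 3 or any KO P56 air replicate (0.59 to 0.83). With the liver covariate the WT calls of Cyp39a1 (0.81), Cyp7b1 (0.39) and Cyp4f39 (0.68) were lost as well. Cyp1b1, an AhR target of stromal cells, rose by 0.90 and 0.86, calls that were lost with the liver covariate in WT (0.58) and after centring in KO (0.74). Cyp1a1 rose in KO (1.03, limma adjusted p = 0.021), a call lost without KO P5 air replicate 1 (0.41) or KO P56 air replicate 1 or 3. For the 19 lung forms the median step was 0.83 in WT and 1.03 in KO, against 0.00 over all genes in either. The step had the same sign in both genotypes for 17 of 19, and 11 were called in WT, 13 in KO and 9 in both. The rule for lung forms counts arrays above the median of all values, P56 arrays among them. A gene can therefore enter the class through a rise with age, and these class figures carry no test. Cell markers moved as well. Of 7 measured club cell markers 4 rose in WT and 7 in KO, and their summed signal went from 54244 to 68208 units at P5 to 67534 to 98274 at P56 in WT and from 54663 to 61233 to 110810 to 131669 in KO. In WT air the means of Scgb1a1 (24799 at P5, 23107 at P56) and Scgb3a2 (19327 and 19296) did not rise. The WT mean of Aldh1a1 went from 6348 to 14882. Of 5 type 2 cell markers 3 rose in WT and 2 in KO. Other marker lists moved too, read as mean log2 levels relative to their own mean over all arrays. For type 1 markers the group mean went from -0.19 to 0.27 in WT and from -0.07 to 0.51 in KO. Those of endothelium and macrophages also rose in both genotypes, and those of fibroblasts, smooth muscle, mast cells and liver fell. Striated muscle, squamous and steroidogenic markers fell in WT and rose in KO. The part of any of these cells in the P450 rise was not tested.

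**Figure D2:**
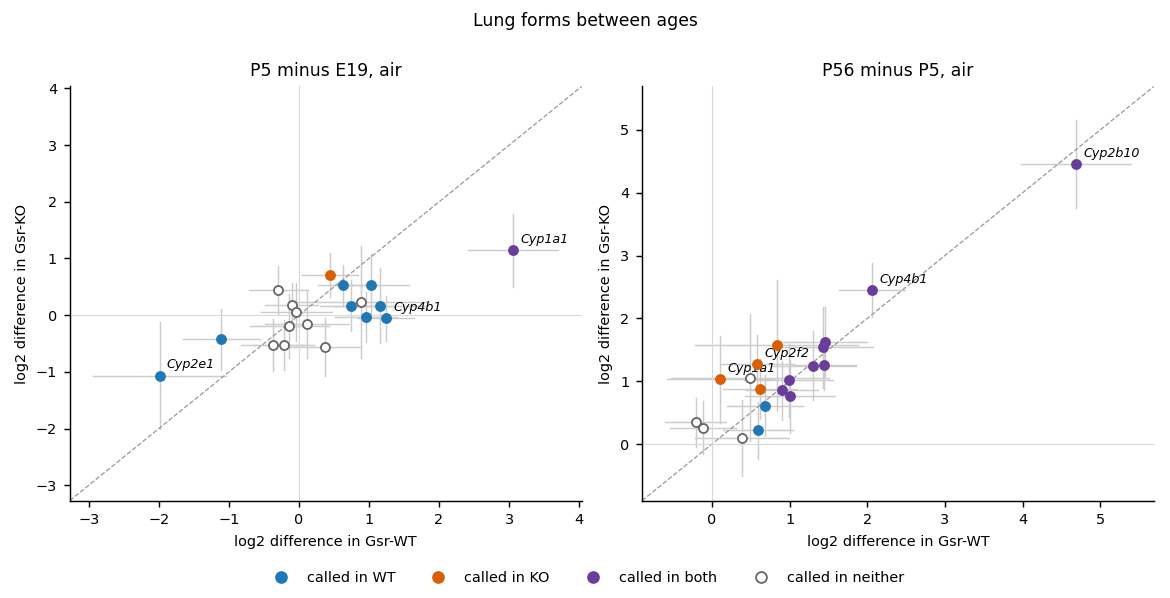
Log2 difference of each of the 19 lung forms in WT (x) and KO (y) air-breathing mice, from E19 to P5 and from P5 to P56, with 95% intervals; colours show in which genotype a change was called. In the later step 17 of 19 points have the same sign in both genotypes, in the earlier step 12 of 19, with Cyp4b1 at 1.24 in WT and -0.06 in KO.

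Some partner genes rose in the same step. Of 13 measured genes of other monooxygenases and epoxide hydrolases 10 rose in WT and 10 in KO. They included the aldehyde oxidases Aox1 (2.45 in WT, 2.63 in KO) and Aox3 (2.84, 2.89), the flavin monooxygenase Fmo2 (2.44, 1.14; in KO 1.80 without KO P5 air replicate 1, and not called without replicate 2 or 3), the epoxide hydrolase Ephx1 (1.45, 1.87; in WT 1.13 and not called without WT P5 air replicate 1, nor with the liver covariate at 0.86) and prostacyclin synthase Ptgis, itself a P450 by structure (1.30, 1.50). Of 6 measured electron donors 4 rose in each genotype, among them Cyb5a, the microsomal cytochrome b5 (0.61, 1.02). Alas1, the first enzyme of heme synthesis, rose by 1.42 and 1.53. Relative to its mean over all arrays, the level of the measured heme genes was -0.03 to 0.04 in WT P5 air. It was -0.12 to -0.05 in WT P56 air, and -0.17 to -0.08 and then 0.07 to 0.14 in KO. The AhR target Aldh3a1 rose by 3.28 and 3.83. Mean Tiparp, another AhR target, was 1907 and 1993 in WT and 1978 and 2067 in KO. Mean Nqo1 was 271 and 278 in WT and 189 and 473 in KO. Ahrr stayed under the median of all values on all these arrays.

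Before birth the genotypes differed. At E19 4 members were higher in KO than in WT and 13 were lower (6.91% and 8.25% of all genes). The 4 higher ones were lung forms, and 11 of the 13 lower ones were the tested liver followers, with Cyp7a1 and Cyp4f15 beside them. Since Cyp2a12, Cyp2c37, Cyp3a16, Cyp3a44 and Cyp7a1 passed the filter through WT E19 replicates 2 to 4 alone, and these arrays also set the liver class, nothing is read from the number of lower members against the share over all genes. The median difference of the 19 lung forms was 0.30, against -0.05 over all genes. Members that follow the liver transcripts, which were high on WT replicates 2 to 4, are left out of this class. The median thus carries no test.

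Cyp4b1 showed the clearest difference among lung forms at E19. The WT arrays read 1344, 1421, 1235 and 1078 and the KO arrays 4241, 3658, 2453 and 2593. All 4 KO arrays thus lay above all 4 WT arrays, a log2 difference of 1.30 (95% interval 0.93 to 1.67, limma adjusted p = 3.58e-05). Cyp4v3 read 344, 525, 365 and 370.5 in WT and 1605, 742, 559.6 and 663 in KO, also without overlap (0.999, SE 0.23, limma adjusted p = 0.00396), but its second probe set gave 0.41 and no call (limma adjusted p = 0.177). Cyp2b10 read 124, 123, 114 and 69.9 in WT and 603, 250.2, 134 and 155 in KO (1.01, SE 0.30, limma adjusted p = 0.021), again without overlap, with replicate 1 of KO well above the rest. Cyp2f2, whose values stand above, overlapped between the genotypes and was higher in KO by 0.81 (SE 0.20, limma adjusted p = 0.00651).

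KO replicate 1, the array with the high 3' to 5' ratio, held the top value of all 4 genes. Without it Cyp4b1 was higher by 1.16 (limma adjusted p = 0.000195), Cyp4v3 by 0.68 (0.0148) and Cyp2f2 by 0.54 (0.0289), while the call of Cyp2b10 was lost (0.60, limma adjusted p = 0.101), as it was without WT replicate 4 (0.86, 0.092). With array weights Cyp2b10 (limma adjusted p = 0.306) and Cyp2f2 (0.0847) were not called. Fitted to the E19 groups alone, none of the 4 was called, and Cyp4b1 came nearest (limma adjusted p = 0.0544). Liver transcripts moved against these genes: the summed signal of 13 measured liver genes ran from 3109 to 234152 in WT and from 682 to 11010 in KO. WT replicate 1, which lacked most of that signal, read 1344 for Cyp4b1, inside the range of the other WT arrays, and 7966 for Cyp2f2, the highest of them. With the liver level as a covariate Cyp4b1 remained called at 0.92 (limma adjusted p = 0.0418), whereas Cyp4v3 (1.11, 0.0925), Cyp2b10 (0.42, 0.595) and Cyp2f2 (0.42, 0.426) did not. Club cell markers were higher too, 5 of 7 measured, and their summed signal lay between 43716 and 59438 on WT arrays and between 59672 and 76383 on KO arrays. Of 5 type 2 markers 3 were higher, with sums between 46179 and 53555 on WT arrays and between 60202 and 70392 on KO arrays. Other marker lists differed too, read as mean log2 levels relative to their own mean over all arrays. Type 1 markers lay between -0.87 and -0.57 on WT arrays and between -0.18 and 0.09 on KO arrays. Group means were higher in KO for endothelium, fibroblasts, macrophages, mast cells and striated muscle. They were lower for smooth muscle, squamous and steroidogenic markers, and arrays overlapped in each of these lists. The part of any cell type in the P450 differences was not tested.

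**Figure D3:**
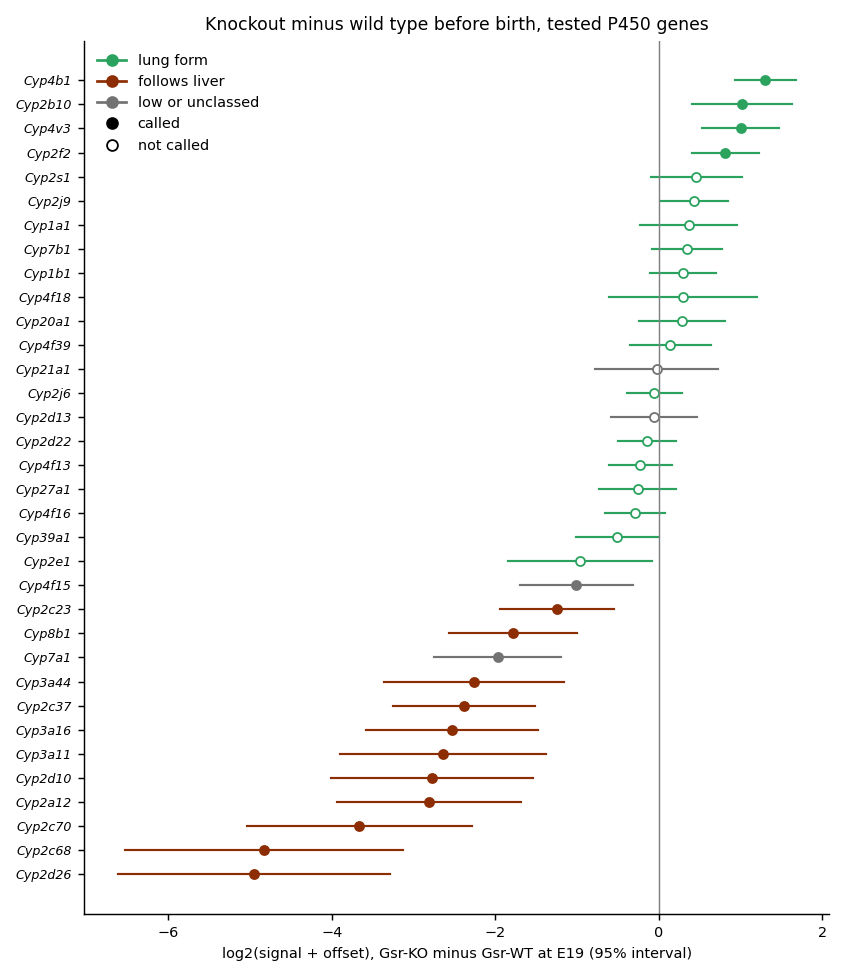
Log2 difference between KO and WT at E19 for the 34 tested members with 95% intervals, coloured by class and filled where called. The 4 called lung forms lie between 0.81 and 1.30, and the liver followers between -4.95 and -1.25.

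The remaining lung forms did not pass the test at E19. Cyp2s1 differed by 0.46 (limma adjusted p = 0.256), Cyp1a1 by 0.36 (0.402) and Cyp2e1 by -0.97 (0.126). Partner genes gave few calls at E19: 0 of 6 electron donors, 2 higher and 1 lower of 13 other monooxygenases and epoxide hydrolases (Aox1 0.97, Fmo1 0.64, Fmo5 -0.74), and among 8 receptors Ahr itself (0.62) was higher and Hnf4a, a liver regulator, lower (-2.70). Of 7 measured heme synthesis genes 5 were lower in KO: Ppox (-1.49), Cpox (-1.33), Alad (-1.31), Urod (-0.66) and Uros (-0.64). The mean level of the heme genes, relative to their own mean over all arrays, was 0.43 to 1.22 on WT replicates 2 to 4 and -0.01 on replicate 1, and that of the liver markers 4.97 to 6.05 and -0.45. With the liver covariate none of the partner genes named here for E19 was called. Alad, Cpox, Fmo1 and Hnf4a remained called without any single E19 array. Without KO replicate 1 Ahr (0.28), Aox1 (0.66), Ppox (-1.01) and Uros (-0.57) were not called, nor were Ahr, Fmo5, Ppox, Urod and Uros without WT replicate 4, and Ahr, Fmo5, Urod and Uros each also lost the call without 1 or more of the other arrays.

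Around birth Cyp4b1, Cyp2f2 and Cyp1a1 rose in WT. From E19 to P5 in air 7 members rose in WT and 6 fell (8.34% and 6.24% of all genes), and in KO 2 rose and 0 fell (2.22% and 1.21%). Without WT P5 air replicate 3, the array that resembled hyperoxia, 5 of the 13 WT calls remained (Cyp1a1, Cyp2e1, Cyp2f2, Cyp39a1 and Cyp4b1), and without WT E19 replicate 1 there were 22. The KO count was 0 without KO E19 replicate 3 or without KO P5 air replicate 2 or 3, and 5 without KO P5 air replicate 1. These comparisons share their E19 and P5 arrays with the genotype comparisons at those ages. For Cyp4b1 the step was 1.24 in WT (limma adjusted p = 0.00014) and -0.06 in KO (95% interval -0.46 to 0.34). The KO arrays at E19, 2453 to 4241, lay in nearly the same range as the P5 air arrays of both genotypes, 2437 to 4042. Tested directly, the KO step was smaller than the WT step by 1.30 on the log2 scale (difference -1.30, 95% interval -1.86 to -0.73, limma adjusted p = 0.0386). Cyp4b1 was the single member called of 34 (0.187% of all genes). At an unadjusted p under 0.05 in limma there were 10 of 34 members, with no share of all genes to set beside them. The call of Cyp4b1 was kept in 14 of 26 alternatives, with limma adjusted p from 0.0087 to 0.612. It was lost when WT E19 replicate 3 or 4, WT P5 air replicate 2 or 3, KO E19 replicate 1 or any KO P5 air replicate was left out, with adjusted p from 0.0552 to 0.189. For Cyp2f2 the steps were 0.96 (limma adjusted p = 0.00332) and -0.03 (95% interval -0.47 to 0.41), and the difference between them was not called (-0.99, limma adjusted p = 0.222).

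Cyp1a1 had the steepest rise at birth. It was below the median of all values on all 8 E19 arrays, at 23.4, 29.2, 27.6 and 72.8 in WT and 85.3, 44.4, 49.6 and 41.3 in KO. At P5 in air WT read 399, 425 and 691, at least 4.07-fold higher than E19 (log2 3.06, limma adjusted p = 1.27e-06). KO read 48.6, 258 and 233, at least 1.39-fold higher (1.15, limma adjusted p = 0.042). The low value, 48.6, came from the P5 array that correlated best with an E19 array, and without it the KO step was 1.77 (limma adjusted p = 3.3e-05). Without KO P5 air replicate 2 or 3 it was not called (0.80 and 0.87). The difference between the steps was -1.91 and was not called (limma adjusted p = 0.0715).

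Other members also shifted at birth in WT. The epoxygenases Cyp2j9 (0.74) and Cyp2j6 (0.63), Cyp4f39 (1.03) and Cyp2b10 (1.16) rose, and each of these calls was lost without WT P5 air replicate 3 (limma adjusted p from 0.0586 to 0.148). Cyp39a1 fell by 1.11, from 830.3, 771, 900.2 and 1101 to 341, 377 and 497, with no overlap. Cyp2e1 fell by 1.99 (limma adjusted p = 0.00431), from 411, 1781, 1333 and 2203 to 340.3, 246 and 280.04. Its lowest E19 value came from replicate 1, the array without liver transcripts, and its r with the liver level was 0.82 over E19 arrays and 0.61 over P5 arrays, so it missed the rule for liver followers at P5. In KO Cyp4f16 rose (0.71, limma adjusted p = 0.0411), a call that was lost without KO E19 replicate 1, 3 or 4 or KO P5 air replicate 2 or 3. The median step of the 19 lung forms was 0.37 in WT and 0.05 in KO, against 0.01 and 0.08 over all genes. As in the E19 comparison, the class leaves out members that follow the liver transcripts, so these medians carry no test.

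After birth no member was called between genotypes. The counts were 0 of 34 in P5 air (0.015% of all genes), P5 hyperoxia (0.187%), P56 air (0.0599%) and P56 hyperoxia (0.03%), and limma gave unadjusted p under 0.05 for 6, 1, 1 and 2 members. Cyp1a1 nonetheless had its lower mean in KO in each of the 4 groups. In P5 hyperoxia WT read 547, 616 and 582 and KO 285, 269 and 364. In P56 air the values were 604, 478 and 519.6 against 374, 260.3 and 383, and in P56 hyperoxia 569, 421 and 548 against 345, 432 and 319.8. The arrays of the genotypes overlapped in P56 hyperoxia and in none of the other 3. Log2 differences were -1.55 (95% interval -2.24 to -0.86, limma adjusted p = 0.167) in P5 air, -0.88 (-1.57 to -0.19) in P5 hyperoxia, -0.63 (-1.32 to 0.06) in P56 air and -0.46 (-1.15 to 0.23) in P56 hyperoxia. Without KO replicate 1 the P5 air difference was -0.93. The interval in P5 air and in P5 hyperoxia leaves out 0, but the difference does not survive adjustment over all genes. With array weights, which lower the influence of noisy arrays, Cyp1a1 was called lower in KO in P5 air (-0.84, limma adjusted p = 0.0031), P5 hyperoxia (-0.99, 2.7e-05), P56 air (-0.74, 0.0083) and P56 hyperoxia (-0.47, 0.033). The weights were uneven, from 0.047 to 10.4 over all arrays. WT P5 hyperoxia replicate 2 had 10.4, against 0.58 and 1.71 on the others of its group. KO P5 air replicate 2 had 4.31, against 0.26 and 1.07. In P56 hyperoxia WT replicate 1 had 5.00, against 0.094 and 1.24, and KO replicate 2 had 4.42, against 0.48 and 1.22. The weighted calls at P5 and in P56 hyperoxia thus lean mostly on single arrays in these groups. In P56 air the weights ran from 0.71 to 3.33. Fitted to the compared groups alone Cyp1a1 was called in P5 hyperoxia (limma adjusted p = 0.0471) and P56 air (0.046).

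At P56 in air Cyp2f2 and Cyp4b1 had higher means in KO without a call. Cyp2f2 differed by 0.51 (95% interval 0.03 to 0.98, limma adjusted p = 0.382), with all 3 KO arrays above all 3 WT arrays. Cyp4b1 differed by 0.39 (limma adjusted p = 0.465). After quantile normalisation these differences were -0.0046 and 0.02, and fitted to the compared groups alone both were called (limma adjusted p = 0.0223 and 0.0467). For Cyp2b10 the P56 difference was -0.21 after air and -0.15 after hyperoxia.

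Hyperoxia changed no member past the threshold. The counts were 0 of 34 in WT at P5 (0.00749% of all genes), KO at P5 (0.337%), WT at P56 (0%) and KO at P56 (0%), with 2, 2, 1 and 0 members at an unadjusted p under 0.05 in limma. The genotype-by-oxygen term was called for 0 members at P5 (0.135%) and at P56 (0%), and 0 members had an unadjusted p under 0.05 at either age. Cyp2s1 in WT at P5 read 754, 973 and 1478 in air and 1249, 1949 and 1759 in oxygen. These groups overlapped and differed by 0.65. Over the alternatives the difference ran from 0.24 (liver covariate) to 0.95 (array weights), and it was called with array weights alone (limma adjusted p = 3.13e-05). It was 0.43 without WT P5 air replicate 1 and 0.90 without the pair of P5 arrays that resemble the other exposure. Cyp1a1 in KO at P5 differed by 0.90 (limma adjusted p = 0.573), from 48.6, 258 and 233 in air to 285, 269 and 364 in oxygen. Without KO P5 air replicate 1, which read 48.6, the difference was 0.28. In WT the corresponding means were 505 ± 161 (SD, n = 3) in air and 582 ± 34.6 (SD, n = 3) in oxygen. Cyp1a2, another AhR-responsive P450, stayed between 2.73 and 28.6 on all 32 arrays.

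Each of the 11 tested liver followers had its 3 highest values on WT E19 replicates 2 to 4, the arrays with the highest Ahsg and Apoa1. Since the E19 and P5 arrays chose the class, the values are a description and carry no test. Cyp2c68, of the Cyp2c drug and fatty acid oxidases, read 49.1, 5458, 2900.4 and 10380.3 in WT at E19 and 35.8, 21.8, 70.3 and 39.8 in KO. In P5 air it read 1285, 544 and 191 in WT and 32.9, 22.3 and 19.0 in KO. By P56 no array exceeded 58.9. Replicates 2 to 4 of WT at E19 and all 3 WT P5 air arrays thus stood above every KO array.

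Cyp2d26 followed the same course, at 11.9, 3640.1, 1648 and 4397 in WT at E19 against 2.8, 2.11, 19.6 and 3.52 in KO, and at 441, 193 and 73.2 in WT P5 air. Cyp3a11, the main hepatic drug-metabolising P450 of mice, read 31.3, 1163, 382 and 2157 in WT at E19, and 28.6 to 73.4 in KO. Cyp8b1, the sterol 12-hydroxylase that sets the cholic acid share of bile, read 40.9, 512, 197 and 607 against 39.5 to 67.1. Replicate 1 of WT resembled the KO arrays in each of these genes. At P56 Cyp8b1 did not follow the liver level: it read 134, 131 and 88.9 in WT hyperoxia, where Ahsg lay between 1.87 and 2.85, against 115, 116 and 81.4 in WT P5 air, where Ahsg lay between 617 and 3109. At E19 the WT mean was at least 14.9-fold above KO for Cyp2c68, 7.97-fold for Cyp2d26, 7.49-fold for Cyp2c70, 3.92-fold for Cyp3a11, 2.51-fold for Cyp2d10 and 2.11-fold for Cyp8b1, and at least 1.30-fold to 1.83-fold for Cyp2c23, Cyp3a16, Cyp2c37, Cyp3a44 and Cyp2a12. These are lower bounds, since every KO array lay under the median of all values.

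**Figure D4:**
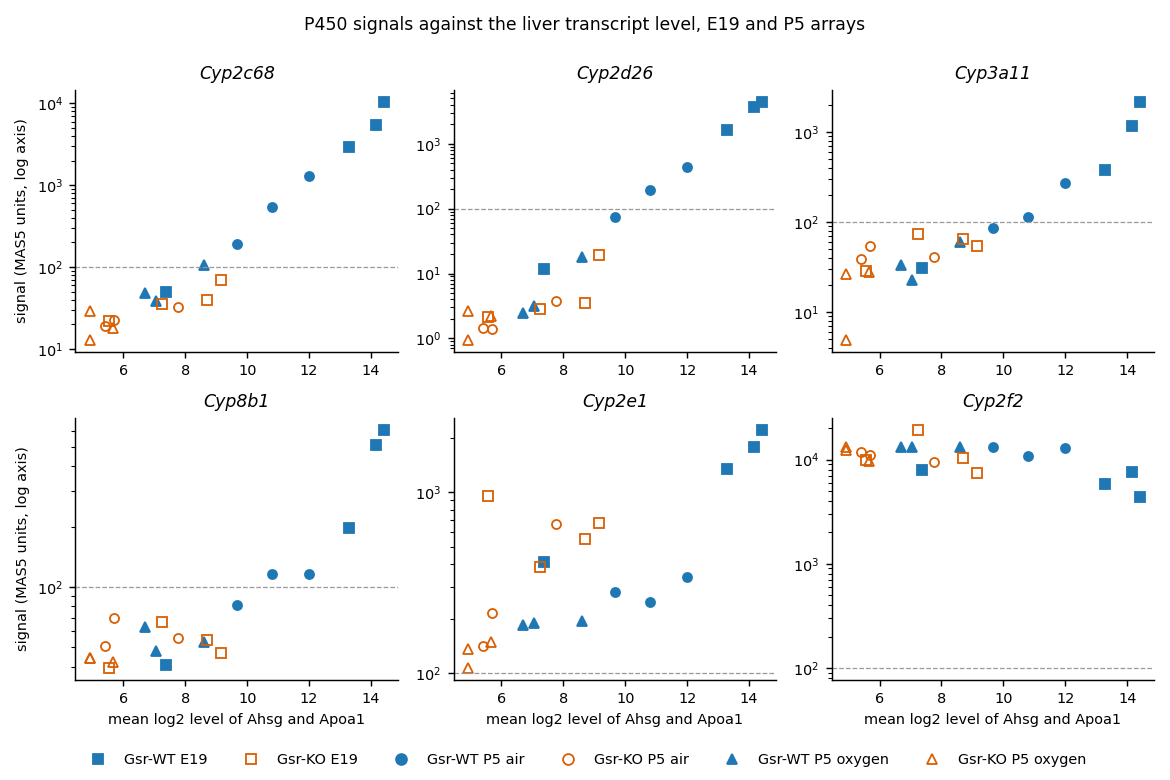
Signal of 6 members (log axis, deposited units) against the mean log2 level of Ahsg and Apoa1 on the 20 E19 and P5 arrays, one point per array. Cyp2c68, Cyp2d26, Cyp3a11 and Cyp8b1 are high where the liver level is high, Cyp2e1 follows in part, and Cyp2f2 does not rise with it.

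The E19 arrays fall into separate clusters on the liver level (13.3 to 14.4 on WT replicates 2 to 4, 5.5 to 9.2 on the other 5), so the correlations that set the class mostly contrast those clusters. At P5 r was between 0.72 (Cyp2c23) and 0.95 (Cyp2c68, Cyp2c70) over 12 arrays, and at P56, where no array carried the liver transcripts at that level, r lay between -0.35 and 0.37. Without the 2 P5 arrays farthest from the median liver level, r at P5 ran from 0.34 (Cyp3a44) to 0.91 (Cyp2c68) among tested followers. It was then also under 0.7 for Cyp2a12 (0.39), Cyp2c23 (0.57) and Cyp8b1 (0.62). Requiring 0.5 gave 17 followers and 0.85 gave 8, and Spearman's rho in place of r gave 9, of which 8 were shared. Cyp7a1, the rate-limiting enzyme of bile acid synthesis, lay just outside. It had r = 0.96 at E19 but 0.32 at P5, and read 28.8, 271, 220.1 and 530.3 in WT at E19 against 23.8 to 37.2 in KO. Cyp4f15 had r = 0.86 at E19 and 0.02 at P5, with 4.65, 121, 74.8 and 181 in WT and 6.77 to 41.2 in KO at E19. The liver followers are thus not all of the members that moved with liver transcripts at E19.

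Some tested members had few calls or none. Cyp20a1, a P450 without an assigned substrate, had no call in any comparison, although its KO arrays at E19 spread over 5418, 2813, 2064 and 1327. Cyp2j6 lay between 176 and 464 and Cyp4f16 between 185 and 559, and each was called in a single comparison, at birth. Cyp21a1 and Cyp2d13 passed the filter on 3 arrays each and had no call.

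The other 34 members were not tested. On 25 of them no array exceeded the median of all values, and their mean signals lay between 2.78 and 71.2. Cyp46a1, the brain cholesterol 24-hydroxylase, ran from 15.9 to 97.8. All 4 untested steroid synthesis genes stayed low (Cyp11a1, Cyp11b1, Cyp11b2 and Cyp17a1, 2.59 to 84.8), as did the vitamin D enzymes Cyp2r1, Cyp24a1 and Cyp27b1 (1.09 to 45.9). The 8 untested fatty acid enzymes (Cyp2j5, Cyp2j11, Cyp2j13, Cyp2u1, Cyp4a14, Cyp4a31, Cyp4f14, Cyp4x1) ranged from 0.91 to 384.8. The 17 untested drug-metabolising forms (Cyp2b9, Cyp2b13, Cyp2b19, Cyp2c29, Cyp2c38, Cyp2c39, Cyp2c50, Cyp2c54, Cyp2c55, Cyp2c65, Cyp2d9, Cyp2d12, Cyp2d34, Cyp2d40, Cyp2g1, Cyp3a13 and Cyp3a25) ranged from 0.476 to 240.1. Among these Cyp2c50 met the rule for liver followers (r = 0.76 at E19 and 0.81 at P5). A low signal of a probe set is not a measure of absence, and these genes have close paralogs on the array.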

How the data were processed

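The deposited files hold 1 Affymetrix mouse array per animal. The deposited values are linear intensity, given for 45101 probe sets, and the submitters' processing notes name MAS5. On each array the mean of the deposited intensity without the lowest and highest 2% was 500. Software version, detection calls and scan dates are not given in the sources used here.

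Computed here: log2(intensity + 26.3), the offset being the 25th percentile of all values. Probe sets were kept above 100.4 on at least 3 arrays, without 64 controls, and each gene was read by the probe set with the highest mean log2 value (13345 genes). In R 4.3.3, limma 3.58.1 fitted a mean per group over 32 arrays (22 residual degrees of freedom, eBayes with trend), with 17 two-sided contrasts and Benjamini-Hochberg adjustment over all genes at 0.05. The fit was tested on simulated data. Bounds ("at least") apply where every array of the lower group was under 100.4: the mean log2(intensity + 26.3) of the higher group is set against that of 100.4. Another 4 probe sets that name a Cyp gene with several symbols were not used, and 18 genes had several probe sets. Among the unused was the probe set shared by Cyp2a5 and Cyp2a4, with a mean of 786 and a range of 3.03 to 3943. Cyp2a5 is therefore not described, although it is on the fixed list named below.

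Named are called members, the 10 members with the highest mean, a fixed list of lung, AhR, sterol, steroid and vitamin D forms, and all liver followers. Members, classes and gene lists were chosen with earlier results of these data known. Replicate numbers did not pair the arrays: of 40 pairs with the same number 10 correlated above 0.1 (range -0.41 to 0.27), and in 1 of 13 pairs of groups every correlation did, so no replicate block entered the fit. Alternatives were no and a stricter filter, other offsets, quantile normalisation, median centring, array weights, an untrended variance prior, a fit of the compared groups only, a replicate block, a liver covariate, the second probe set and each array left out. Leaving out a pair of P5 arrays, and the alternatives for partner genes and for Cyp1a1 under hyperoxia in KO, were added after the data were seen. Promoters came from RefSeq (GRCm38.p6), Python 3.11.15 and matplotlib 3.10.9 made the figures.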

Additional observations from a re-analysis of the deposited data

Results flagged for a closer look

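Cyp4b1 was flagged because its step from E19 to P5 differed between genotypes in a direct test (genotype-by-birth term -1.30, limma adjusted p = 0.0386). Single arrays far from the other 3 of their E19 group flagged 6 values, each given as the gap to the nearest array over the range of the group. In WT replicate 4 these were Cyp1a1 (0.840, signal 72.8) and Cyp2b10 (0.842, signal 69.9). In KO replicate 1 they were Cyp2c23 (0.972, signal 80.5), Cyp2d13 (0.835, signal 15.9) and Cyp4f13 (0.889, signal 69.9), and in KO replicate 3 Cyp2d26 (0.899, signal 19.6). Each exceeds Dixon's 95% critical value for 4 arrays. Of 68 sets of a tested member and an E19 group 6 were flagged, 8.82%, and chance flags about 1 in 20. All 6 signals are below the median of all values.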

How the results depend on the processing

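Of the 61 called changes of single members, the call was kept in 61 without the variance trend, 58 with an offset of 100, 57 with array weights, 56 with the replicate block, 55 after quantile normalisation, 54 with no filter, 54 with an offset of 1, 52 after centring, 35 with the compared groups alone and 33 with the liver covariate. Of the 43 still tested under the stricter filter 43 kept it. Centring and quantile normalisation moved the median of all genes at E19 by 0.28 and 0.10.

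Counts of called members that moved past 1.5 times are as follows. KO against WT at E19 gave 17 calls, 5 under the stricter filter (fewer genes tested), 0 with the compared groups alone, 1 with the liver covariate and 14 to 18 with single arrays left out. After birth, where limma called 0, array weights gave 6 (air) and 3 (hyperoxia) at P5 and 4 (air) and 6 (hyperoxia) at P56, and the compared groups alone gave 1 at P5 in hyperoxia and 4 at P56 in air. For hyperoxia at P5 array weights gave 16 in WT and 3 in KO, and 3 for genotype by oxygen. From E19 to P5 in WT 13 became 8 with the groups alone, 23 with array weights, 6 without the pair of P5 arrays and 5 to 22 with single arrays left out. In KO 2 became 0 with no filter, quantile normalisation, centring, the groups alone or the liver covariate, 1 with the replicate block or the second probe set, 6 with array weights and 0 to 5 with single arrays left out. From P5 to P56 in WT 14 became 22 with array weights, 6 with the liver covariate and 9 to 12 with single arrays left out. In KO 14 became 11 to 14. Genotype by birth, 1 call, gave 0 with no filter, centring, the groups alone or without the P5 pair, 2 after quantile normalisation, with array weights or with the liver covariate, and 0 to 15 with single arrays left out. Genotype by maturation, 0 calls, gave 4 with the groups alone and 5 with array weights. The share of all genes called was taken in the main fit alone and is not given for any alternative. The counts under alternatives therefore cannot be read as particular to the P450 family. The causes were not tested.

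As a paired analysis, the replicate block gave 17 at E19, 10 and 1 at birth, 13 and 15 from P5 to P56 (WT and KO) and 1 for genotype by birth, and 0 elsewhere. Some signs turned. With the liver covariate the falls of Cyp2c68 (-3.17) and Cyp2d26 (-2.93) from P5 to P56 in WT became 0.22 and 0.32, Cyp2e1 at E19 went from -0.97 to 0.12, and Cyp2b10 for hyperoxia in WT at P5 became -0.011. KO against WT in P5 air gave -0.013 (quantile), -0.37 (liver covariate) and -0.15 to 0.21 (single arrays left out) for Cyp4b1, whose value was 0.00, and -0.56 (liver covariate), -0.33 (second probe set) and -0.14 to 0.32 (single arrays left out) for Cyp2b10, whose value was 0.02. In P5 hyperoxia Cyp2b10, at -0.06, gave 0.031 after centring, 0.00095 with the second probe set, 0.26 without the P5 pair and -0.30 to 0.26 with single arrays left out. Cyp2f2 in P56 air gave -0.0046 after quantile normalisation.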
